A study of Danio rerio with 47 samples.

Results

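The ribosomal protein genes of the zebrafish trunk were described from 79 rows of a table of 31475 rows measured on 1-colour expression arrays. A row was taken when its name began with rpl, rps or rplp followed by a digit, and the kinases named rps6k were left out. By their names, 46 of these rows were counted to the large subunit and 32 to the small subunit. The remaining row, rps19bp1, names a partner that binds Rps19 (in mammals a regulator of the deacetylase SIRT1) and is no ribosomal protein. It is kept in all counts of 79. The row of rpl7l1, counted with the large subunit by its name, has a yeast counterpart that acts in the assembly of that subunit. Some ribosomal protein genes stand in the table under clone names or other names, and 5 of them (rps6, rpl29, rpl27a, rps27l and rpsa) are given separately at the end.

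Arrays came from trunks of dnd morphants at 22 days post fertilization (dpf; 10 arrays), wild type at 22 dpf (14 arrays), dnd morphants at 14 dpf (9 arrays) and wild type at 14 dpf (14 arrays). The morphants received a morpholino, an antisense oligonucleotide, against dnd before the first cleavage. The dnd gene encodes an RNA-binding protein that primordial germ cells need to survive, and the labels give these fish a low germ cell number of 1 to 9, scored 24 hours after fertilization, where wild type is labelled high. No fish injected with a control morpholino are among the groups. The RNA of every sample was amplified before labelling with the dye Cy3, and the labels name biological replicates without stating how many fish gave each sample, so p-values here measure the spread between these samples. The labels of the morphants at 14 dpf count 10 replicates, and the one not among the 9 was not analysed here. In such whole trunks, fewer cells of a type and less RNA per cell cannot be told apart.

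Ribosomes translate messenger RNA into protein. The small subunit reads the message and the large subunit joins the amino acids, and each ribosomal protein is needed in about equal number in every ribosome. Growing cells spend much of their transcription on these genes, and their products are assembled with ribosomal RNA in the nucleolus by a separate set of biogenesis factors. When ribosome assembly fails, free Rpl5 and Rpl11 bind Mdm2 and stabilise p53, and in people a loss of 1 copy of several ribosomal protein genes causes Diamond-Blackfan anaemia.

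The arrays themselves showed some structure that touches the results. The array medians lay between 7.26 and 7.70 on the log2 scale. Equal values below 3.7 were shared 51 times between arrays of 22 dpf, 10 times between arrays of 14 dpf and 2 times between arrays of different age, so the ages are treated as normalized apart and 22 dpf is set against 14 dpf without a test. At 22 dpf 5 pairs of arrays of 1 group were near-duplicates, with correlations of their deviations from the group mean of 0.70 to 0.89, and repeated RNA in such pairs would make p-values too small. A morphant pair at 14 dpf (arrays 5 and 13) reached 0.64. Array numbers are those of the sample titles. The transcript of dnd averaged 5.58 ± 1.29 in morphants at 22 dpf against 9.35 ± 2.03 in wild type, and limma gave an adjusted p = 2.78e-05. At 14 dpf its means were 6.01 ± 0.94 in morphants against 7.29 ± 1.39 in wild type, with an adjusted p = 0.295. A morpholino that blocks translation leaves the transcript in place, so these levels do not check the knockdown. The skeletal muscle list, 30 rows that mark the main tissue of a trunk, averaged 13.74 in morphants at 22 dpf, 13.62 in wild type at 22 dpf, 13.75 in morphants at 14 dpf and 13.66 in wild type at 14 dpf, and no row of it passed the test at either age.

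Most ribosomal protein rows lay at the bright end of the arrays and varied little within a group. The median of the 79 row means was 14.99, against 7.47 over all rows, and 46 of the 79 rows (58.2%) had a mean of 14 or more, where 1.85% of all rows lie. Of the 100 rows with the highest mean 31 were ribosomal protein rows, among them rpl6, the brightest, with a mean of 15.52 over the 47 arrays. The brightest value of any row was 15.86, and the brightest value of each array lay between 15.49 and 15.86, so these rows sit just under the top of the scale. Whether the top of the scale compresses differences between groups was not tested. A row's brightness depends on its probes as well as on its transcript, so the order of the rows is a position on the scale and not an order of abundance.

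The median within-group SD was 0.138 for the ribosomal protein rows and 0.642 for all rows. Part of that gap follows the level, since bright rows of any kind varied less. Among rows with a mean of 14 or more the median SD was 0.118 for the 46 ribosomal protein rows and 0.193 for all 583 rows of that brightness. Among rows with a mean of 9 to 12 it was 0.198 for 14 ribosomal protein rows and 0.572 for all rows, and between 12 and 14 it was 0.203 for 10 ribosomal protein rows and 0.365 for all rows. The steadiest rows were rpl13 (SD 0.0711), rpl14 (0.0848), rpl5a (0.0860) and rps19 (0.0906). Steady rows were also found lower on the scale. The row of rps24, a small-subunit protein mutated in some cases of Diamond-Blackfan anaemia, had a mean of 8.03 and an SD of 0.121.

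**Figure D1:**
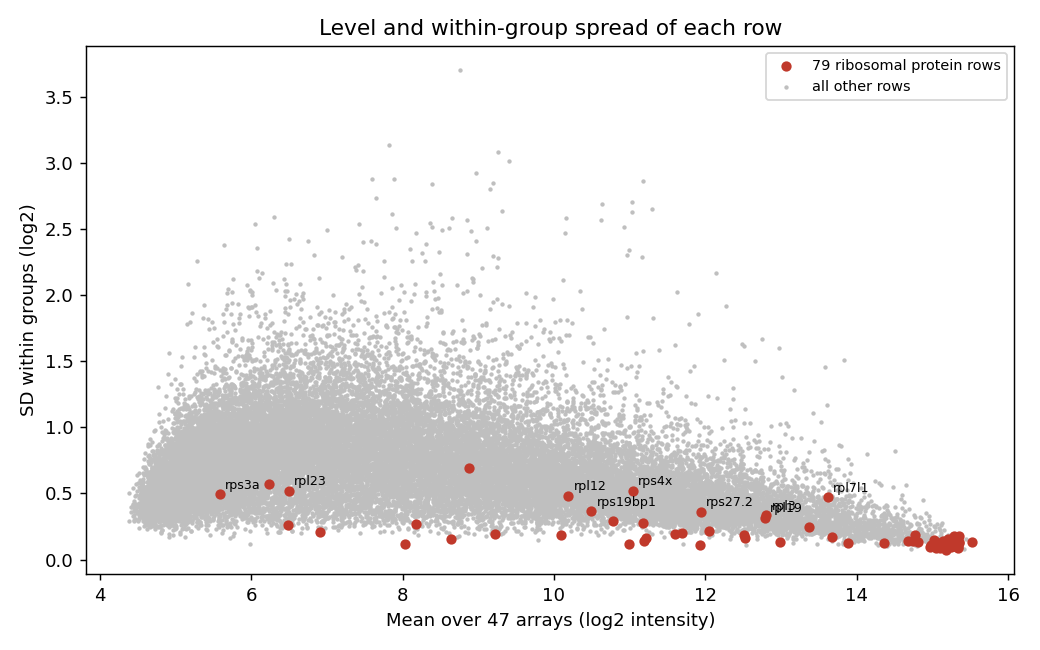
Each point is a row of the array table, placed by its mean over 47 arrays (log2 intensity) and its SD within the 4 groups (log2). The 79 ribosomal protein rows are red and all other rows grey. Names mark red rows whose SD lay above the upper limit for the family, though not every such row. At a mean of 14 or more lie 46 red rows.

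Rows that departed from the family were taken as those beyond 1.5 interquartile ranges outside the quartiles of the 79 rows, as a description without a test. In level, 2 rows lay below the family, and the lower of them was rps3a (mean 5.59). In within-group SD, 11 rows lay above it, among them rpl3, rpl7l1, rpl12, rpl19, rpl23, rps3a, rps4x, rps19bp1 and rps27.2. The upper limit for level was 20.6, where the brightest value of any row was 15.86, and the lower limit for SD was -0.000853. No row could therefore depart upward in level or downward in SD.

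At 22 dpf the morphants did not differ from wild type in any ribosomal protein row that passed the test. Of the 79 rows 0 were called by limma at an adjusted p below 0.05, against 3.49% of all rows (1097 of 31475, of which 911 were lower in morphants). At an unadjusted p below 0.05 there were 2 rows, rpl23 and rps19bp1, which is 2.53% of the family against 13.9% of all rows. The limma fit draws the SD of each row toward a value common to all rows. In steady rows this raises p-values and widens intervals, and how far it lowers the 2.53% was not tested. The median difference, morphant minus wild type, was 0.01 over the family and 0.04 over all rows, with 42 rows above 0 and 37 below it. The median size of the difference was 0.0493 over the family and 0.213 over all rows, most of which are dimmer and less steady.

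At 22 dpf most rows of the family had narrow intervals for the difference. The near-duplicate pairs are counted as separate arrays here, so repeated RNA in them would make these intervals too narrow. Whether the top of the scale narrows the intervals of bright rows was not tested. In 71 of 79 rows (89.9%) the 95% interval of the difference, not adjusted for the number of rows, lay within 0.5 log2 units of 0 on both sides, which held for 18.5% of all rows. All 46 rows with a mean of 14 or more were among them, and of the 33 dimmer rows 25 were. Bright rows of any kind varied less, and the share among all rows of like brightness was not counted. The 8 rows with wider reach included rpl7l1, rpl12, rpl23, rps3a, rps4x and rps19bp1. By array, the mean of the 79 rows was 13.34 ± 0.043 in morphants (SD, n = 10, lowest 13.27, highest 13.39). In wild type it was 13.33 ± 0.057 (SD, n = 14, lowest 13.27, highest 13.47). Every morphant array lay within the wild-type range, which reached higher.

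At 14 dpf 1 ribosomal protein row, rps27.2, was lower in morphants, and no other member passed. That is 1.27% of the family, against 2.48% of all rows called (780 of 31475, 362 higher and 418 lower in morphants), so the count for the family is not above that of the table. At an unadjusted p below 0.05 there were 3 rows, rps27.2, rpl3 and rpl28, all lower in morphants. That is 3.80% of the family against 16.7% of all rows, and here too the fit raises the p-values of steady rows. The median difference was -0.03 over the family and -0.01 over all rows, with 30 rows above 0 and 49 below it, and with each array centred on its own median it was 0.02. The median size of the difference was 0.0633 over the family and 0.253 over all rows, again without matching for brightness.

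The 95% interval lay within 0.5 units of 0 in 71 of 79 rows at 14 dpf too (89.9%), against 15.2% of all rows. Rows of like brightness were again not counted apart. The exceptions included rpl3, rpl12, rpl19, rps3a, rps4x and rps27.2. By array, the mean of the 79 rows was 13.11 ± 0.050 in morphants (SD, n = 9, lowest 13.03, highest 13.18) and 13.16 ± 0.043 in wild type (SD, n = 14, lowest 13.08, highest 13.22). At neither age did any of the 79 rows separate the morphant arrays from the wild-type arrays without overlap. The share of all rows that did so was not counted, so whether the family differs from other rows in this is not known. The change of the difference between the ages (22 minus 14 dpf) was called in 0 of 79 rows by limma, against 0.645% of all rows. At an unadjusted p below 0.05 it was positive in 3 rows and negative in 0, which is 3.80% of the family. Over all rows that share was 11.1%, with 1733 rows positive and 1770 negative.

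**Figure D2:**
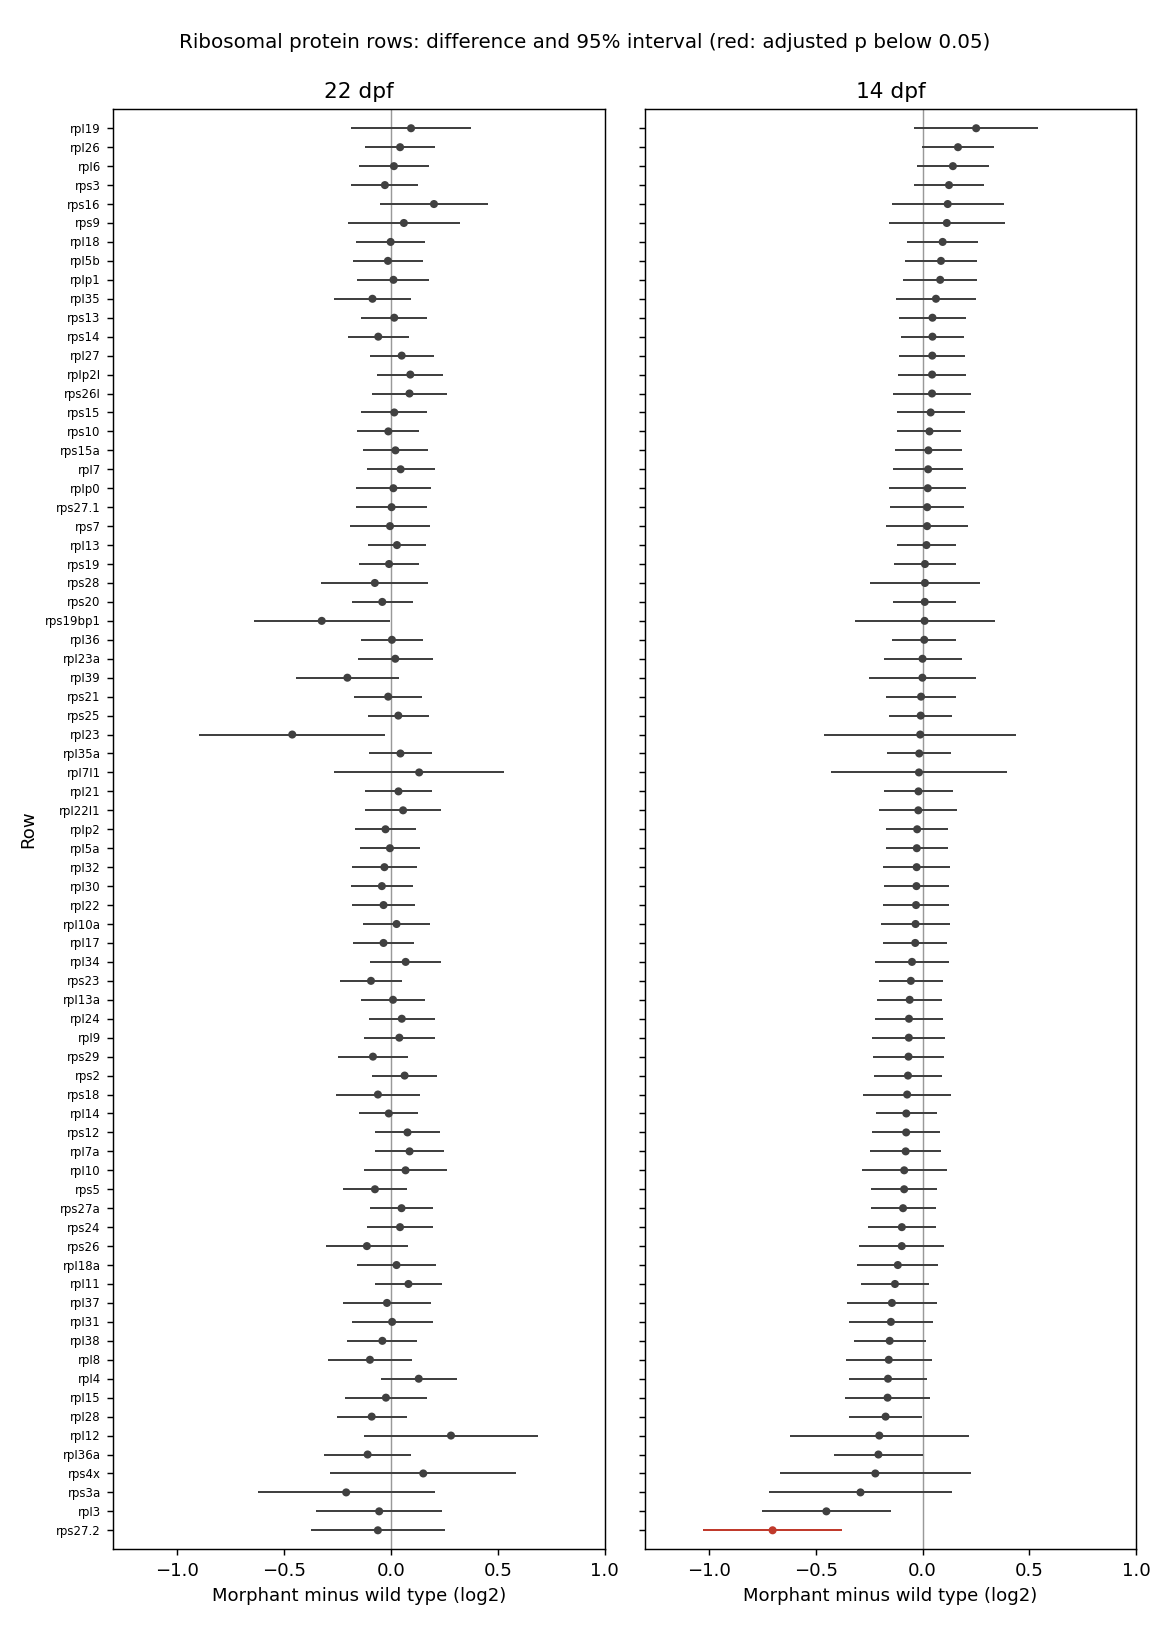
Each line is a ribosomal protein row, with its difference (morphant minus wild type, log2) as a point and its 95% interval as a bar, at 22 dpf on the left and 14 dpf on the right, ordered by the difference at 14 dpf. Red marks an adjusted p below 0.05, which only rps27.2 at 14 dpf has, and most bars at each age stay within 0.5 of 0.

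The row that passed, rps27.2, names a copy of Rps27, a zinc-finger protein of the small subunit. At 14 dpf its lowest, median and highest values were 11.10, 11.40 and 12.15 in morphants, against 11.74, 12.35 and 12.88 in wild type. The wild-type median stood above 9 of 9 morphant arrays, and the groups overlapped between 11.74 and 12.15. Its mean was 11.58 ± 0.38 in morphants (SD, n = 9) and 12.29 ± 0.39 in wild type (SD, n = 14), a difference of -0.70 ± 0.16 (SE), with a 95% interval of -1.03 to -0.38 and an adjusted p = 0.0125 (limma). A two-sided exact permutation test of this row alone gave p = 0.000519 over 817190 splits, not adjusted for its choice among the rows.

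The difference of rps27.2 had a like size in both stretches of title numbers at 14 dpf. Among numbers 1 to 12 the means were 11.38 ± 0.28 in 5 morphants and 12.09 ± 0.34 in 7 wild types, a difference of -0.71. Among numbers 13 onward they were 11.84 ± 0.33 in 4 morphants and 12.48 ± 0.36 in 7 wild types, a difference of -0.64. The row was chosen on these same arrays, so the values of the 2 stretches are a description. The call held with each of the 47 arrays left out in turn, with differences from -0.77 to -0.64 and adjusted p from 0.00645 to 0.0313, but not in a fit of the 14 dpf arrays alone (adjusted p = 0.0609).

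The values of rps27.2 at 22 dpf overlapped almost wholly. The lowest, median and highest were 11.27, 11.89 and 12.42 in morphants and 11.04, 11.88 and 12.30 in wild type. The groups differed by -0.06 ± 0.16 (adjusted p = 0.923), and 5 of 10 morphant arrays were under the median of wild type. The change of the difference between the ages, 0.64 ± 0.22, did not pass (adjusted p = 0.210), so an effect of age on it was not shown.

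A second Rps27 row, rps27.1, lay near the top of the scale and had differences close to 0. At 14 dpf its lowest, median and highest values were 15.02, 15.14 and 15.31 in morphants and 14.88, 15.11 and 15.32 in wild type, a difference of 0.02 ± 0.09 with a 95% interval of -0.15 to 0.19 (adjusted p = 0.930). At 22 dpf its means were 15.17 ± 0.13 in morphants and 15.17 ± 0.19 in wild type, a difference of 0.00 ± 0.08 (adjusted p = 0.995). Probe sequences were not used here, so whether probes of the 2 copies also bind the other copy was not tested. A row of related name, rps27l, stood under a clone name with a mean of 12.58 over all arrays. Its difference at 14 dpf was -0.28 ± 0.13 (limma, adjusted p = 0.263), also lower in morphants.

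Cell type markers also differed between the groups at 14 dpf, where 2.48% of all rows were called. The germ cell list, of which 12 of 25 rows fell and 0 rose, had array means of 5.51 to 6.72 in morphants and 6.64 to 8.003 in wild type. The leukocyte list, of which 3 of 24 rows rose and 0 fell, averaged 8.28 to 8.94 in morphants and 7.38 to 8.55 in wild type. Their part in the result for rps27.2 was not tested. At 22 dpf, where 3.49% of all rows were called, 25 of 25 germ cell rows fell. Array means of the germ cell list were then 5.71 to 8.42 in morphants and 7.19 to 11.53 in wild type. In the exocrine pancreas list 6 of 18 rows rose at 22 dpf, with array means of 8.17 to 12.89 in morphants and 7.94 to 12.80 in wild type. Of the liver, nervous tissue and erythrocyte lists, 1 row passed, fech of the erythrocyte list, which fell at 14 dpf. It ran against its list, whose median difference at 14 dpf was 0.46. Array means of the erythrocyte list at 14 dpf were 8.61 ± 0.63 in morphants and 8.26 ± 0.35 in wild type.

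Below the call, rpl3 had an unadjusted p below 0.05 at 14 dpf. The row of rpl3, a protein next to the site where peptide bonds form, had a lowest, median and highest value of 11.21, 12.39 and 12.78 in morphants, against 12.51, 12.73 and 13.31 in wild type. The groups differed by -0.45 ± 0.15 (adjusted p = 0.0950), and 7 of 9 morphant arrays were under the median of wild type. The low end was morphant array 16, at 11.21, and without it the difference was -0.32. Within title numbers 1 to 12 it was -0.25, and within 13 onward -0.71. The lowest, median and highest values of rpl3 at 22 dpf were 12.29, 12.94 and 13.58 in morphants and 12.69, 12.99 and 13.95 in wild type, a difference of -0.06 ± 0.15 (adjusted p = 0.927).

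At 22 dpf the lowest difference was that of rpl23, a large-subunit protein that can bind Mdm2. Its lowest, median and highest values were 5.54, 6.23 and 6.42 in morphants, against 5.21, 6.34 and 8.54 in wild type. The wild-type spread came from arrays 5 (7.83), 6 (7.71) and 22 (8.54), of which 5 and 6 are near-duplicates, while the other wild-type arrays reached 6.68 at most. The difference was -0.46 ± 0.22 (adjusted p = 0.318), and -0.31 without wild-type array 22. The means of rpl23 at 14 dpf were 6.56 ± 0.30 in morphants and 6.58 ± 0.29 in wild type. The row of rps19bp1, which names a binding partner and no ribosomal protein, had a mean at 22 dpf of 10.01 ± 0.52 in morphants and 10.33 ± 0.43 in wild type. The difference was -0.32 ± 0.16 (adjusted p = 0.346, 8 of 10 arrays below the wild-type median).

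**Figure D3:**
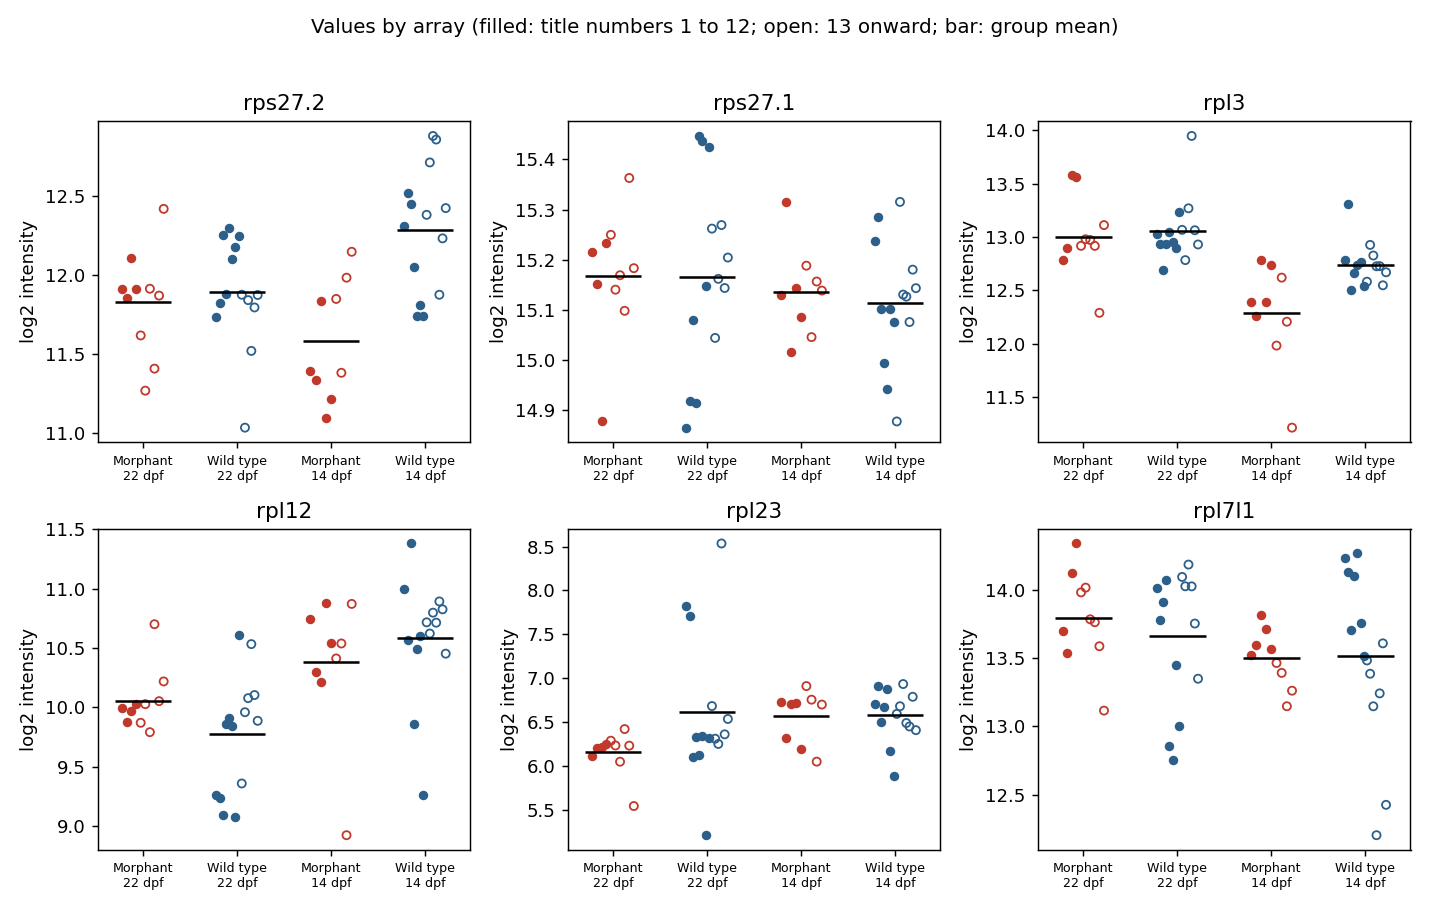
Log2 intensity of 6 rows on every array, in morphants (red) and wild type (blue) at 22 dpf and then at 14 dpf. Filled points are title numbers 1 to 12, open points 13 onward, and bars are group means. All 9 morphant values of rps27.2 at 14 dpf lie below the wild-type median, the groups of rps27.1 overlap around like means, and single arrays set the ends for rpl3, rpl12 and rpl23.

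Other rows at the edges of the family had differences that did not pass after adjustment. On the high side at 22 dpf were rpl12 (0.28 ± 0.20, adjusted p = 0.602), a protein at the base of the ribosomal stalk, and rps16 (0.20 ± 0.13, adjusted p = 0.530). On the low side at 22 dpf were rps3a (-0.21 ± 0.21, adjusted p = 0.742) and rpl39 (-0.20 ± 0.12, adjusted p = 0.483), a very short protein that lines the tunnel through which new peptides leave. At 14 dpf rpl19 lay highest (0.25 ± 0.14, adjusted p = 0.383), followed by rpl26 (0.17 ± 0.08, adjusted p = 0.304), and rpl28 was on the low side (-0.17 ± 0.08, adjusted p = 0.289).

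The rows were then read by what the proteins do. The subunits had like medians: 0.01 at 22 dpf and -0.03 at 14 dpf for the 46 large-subunit rows, and -0.01 at both ages for the 32 small-subunit rows. The stalk proteins rplp0, rplp1, rplp2 and rplp2l recruit elongation factors. Their rows differed by -0.03 to 0.09 at 22 dpf and by -0.03 to 0.08 at 14 dpf. At both ages 0 of 4 were called, where 3.49% of all rows were called at 22 dpf and 2.48% at 14 dpf. With 4 rows, that count is near the share of all rows. The rows of rpl5a, rpl5b and rpl11, whose proteins bind Mdm2 when assembly fails, differed by -0.01 to 0.08 at 22 dpf and by -0.13 to 0.09 at 14 dpf. The widest 95% bounds for these 3 rows were -0.18 and 0.24 at 22 dpf and -0.29 and 0.26 at 14 dpf.

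Genes whose human counterparts are mutated in Diamond-Blackfan anaemia gave 20 rows. At 22 dpf 0 of them were called, against 3.49% of all rows, and the differences ran from -0.11 (rps26) to 0.08 (rpl11). At 14 dpf the 1 called was rps27.2, against 2.48% of all rows, and the rest of the range reached 0.17 (rpl26). Zebrafish heterozygous for a mutation in any of several ribosomal protein genes develop nerve sheath tumours, and 10 rows of such genes had 0 calls, with differences of -0.11 to 0.05 at 22 dpf and -0.21 to 0.06 at 14 dpf. The lowest of these at both ages was rpl36a. These role lists are background knowledge, chosen with earlier results of these data in view.

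Between the ages, more ribosomal protein rows stood higher at 22 dpf than at 14 dpf, in both genotypes. The median of the difference in group means, 22 minus 14 dpf, was 0.14 in morphants and 0.13 in wild type, against 0.00 in morphants and -0.02 in wild type over all rows. The sign was positive in 63 of 79 rows in morphants and in 62 of 79 in wild type, and 72 rows had the same sign in both genotypes. The median shift depended on scaling. It was -0.01 in both genotypes with arrays centred on their medians, and 0.04 in morphants and 0.03 in wild type with all arrays quantile normalized together. Age and normalization run cannot be told apart here, so no test was made.

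A minority of rows differed between ages by far more than that shift. Beyond 0.5 log2 units in both genotypes were 12 rows higher and 3 rows lower at 22 dpf. These counts hold for the deposited scale, on which the median shift depended. The share of all rows beyond it in both genotypes was not counted. The widest gap was that of rpl4, whose protein lines the exit tunnel. Its means at 22 dpf were 12.26 ± 0.19 in morphants and 12.13 ± 0.14 in wild type, against means at 14 dpf of 10.11 ± 0.13 in morphants and 10.27 ± 0.18 in wild type. On the other side, rpl13a had means at 22 dpf of 11.44 ± 0.12 in morphants and 11.43 ± 0.09 in wild type, and at 14 dpf of 12.42 ± 0.11 in morphants and 12.48 ± 0.12 in wild type. In both rows the ages separated by several times the SD within a group, while the genotypes of 1 age lay close together.

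With no overlap of any array between the ages in both genotypes, 9 rows stood higher at 22 dpf (among them rpl4, rpl7, rpl8, rpl15, rpl22l1, rps2, rps21 and rps28) and 2 lower (rpl9 and rpl13a). Within 1 genotype such separation was found in 17.7% of the family in morphants and 15.2% in wild type. Over all rows it was 4.51% in morphants and 2.27% in wild type, and the share in both genotypes together was not counted. The family varied less within a group (median SD 0.138 against 0.642 for all rows), and a smaller difference separates such rows. Beyond 0.5 units regardless of overlap were 40.5% of all rows in morphants and 40.8% in wild type, against 15 rows above and 4 below in the morphants of the family and 13 above and 4 below in its wild type. The paralogs rpl22 and rpl22l1, both of which act in blood development in zebrafish, differed by unlike amounts in these levels: rpl22l1 by 1.08 in morphants and 1.01 in wild type, and rpl22, near the top of the scale, by 0.21 in both.

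**Figure D4:**
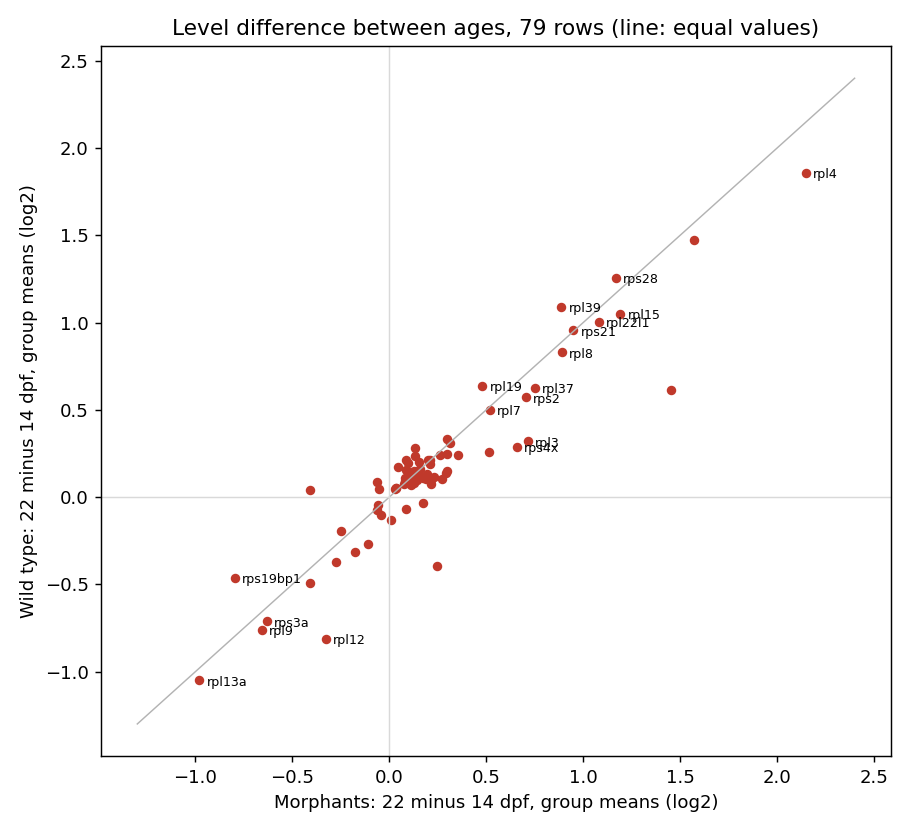
Each point is 1 of 79 ribosomal protein rows, with the difference of group means between 22 and 14 dpf in morphants (horizontal, log2) and in wild type (vertical, log2), and the line marks equal values. Names mark rows beyond 0.5, though not every such row. Most points lie near the line and above 0, with rpl4 at the upper end and rpl13a at the lower end.

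Over the arrays of a group, pairs of rows were correlated in both directions. Deviations from the group mean had a median correlation of 0.06 over 3081 pairs of rows and 47 arrays, with a lowest of -0.75 (rpl7l1 with rps26) and a highest of 0.72. Other high pairs were rpl38 with rps26 (0.65) and rpl11 with rps10 (0.60). Against the mean of the other members the median correlation was 0.19, with 16 rows below 0 and 4 above 0.5. These points share arrays, normalization and the near-duplicate pairs, and they are given as a description. Outside the family, the named rows closest to its mean by the same measure were sap30l (0.71), cep97 (0.68), grtp1a (0.64), tp53bp1 (0.63), dus1l (0.63) and nop56 (0.60). By array, wild-type array 5 at 22 dpf was the lowest of its group in 18 rows, and morphant array 15 at 14 dpf was the lowest of its group in 19.

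Some rows differed by title number. With numbers 13 onward set against 1 to 12 as a term of the limma model, 1 ribosomal protein row was called at each age, against 7.42% of all rows at 22 dpf and 1.34% of all rows at 14 dpf. At 14 dpf it was rpl7l1, with a difference of -0.67, lower in the later numbers (adjusted p = 0.0410). The name of rpl7l1 places it near rpl7, and its counterpart in yeast acts in the assembly of the large subunit.

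The 5 ribosomal protein genes that stand under other names were read in the same way. None was called by limma at either age, where 3.49% of all rows were called at 22 dpf and 2.48% at 14 dpf. At an unadjusted limma p below 0.05 there was only rps27l at 14 dpf (p = 0.0374). Of all rows, 16.7% had such a p at 14 dpf. Their differences ran from -0.16 (rps27l) to 0.04 (rpl29) at 22 dpf, and from -0.28 (rps27l, SE 0.13, adjusted p = 0.263) to -0.01 (rpsa) at 14 dpf. All 5 were below 0 at 14 dpf on the deposited scale, with rpl29 at -0.04, rpl27a at -0.05 and rpsa at -0.01. Signs this close to 0 depend on scaling. Centring the arrays on their medians moved the median over all rows at 14 dpf from -0.01 to 0.04.

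Genes that work beside the ribosomal proteins were read from the same fit, in which 2.48% of all rows were called at 14 dpf and 3.49% at 22 dpf. The ribosome biogenesis list, nucleolar factors that process ribosomal RNA and assemble subunits, had 8 of 70 rows lower in morphants at 14 dpf and 0 higher, with a median difference of -0.37, where the median over all rows was -0.01. They included bop1 (9.20 ± 0.51 in morphants, 10.15 ± 0.34 in wild type, adjusted p = 0.00282), a factor in maturation of the large subunit, and bxdc2 (11.98 ± 0.64 in morphants, 12.91 ± 0.37 in wild type, adjusted p = 0.0129), an assembly factor of the same subunit. The list averaged 10.75 ± 0.36 in morphants (lowest 10.02, highest 11.18) and 11.12 ± 0.27 in wild type (lowest 10.64, highest 11.56). At 22 dpf 0 of 70 rows passed and the median difference was 0.08. The count of 8 was 2 in a fit of 14 dpf alone, 5 with centred arrays and 3 without morphant array 16.

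The remaining translation lists had few calls, to be set against 2.48% of all rows called at 14 dpf and 3.49% at 22 dpf. The mitochondrial ribosome list, 57 rows for the separate ribosome of mitochondria, had 0 rows called at 22 dpf and 1 at 14 dpf. That row was mrpl39, which fell by 0.61 (limma, adjusted p = 0.0269). It is a dim row, with means of 5.47 ± 0.18 in morphants and 6.08 ± 0.46 in wild type at 14 dpf. The median of all row means was 7.47. The median difference of that list was 0.05 at 22 dpf and 0.15 at 14 dpf. None of 19 elongation rows was called by limma at either age. The mean of the initiation list at 22 dpf was 12.20 in morphants and 12.21 in wild type. At 14 dpf this mean was 12.33 in morphants and 12.43 in wild type, and 3 of 9 morphant arrays were under the lowest of wild type. The median difference over the rows of the list was 0.09 at 22 dpf and -0.05 at 14 dpf. The means include the called row named next, and its share in their gaps was not counted. Of 37 initiation rows the 1 that fell at each age was eif4e1b, an oocyte-type cap-binding factor, whose means at 22 dpf were 6.05 ± 1.48 in morphants against 10.17 ± 1.71 in wild type (adjusted p = 1.5e-06), and at 14 dpf 5.44 ± 0.61 in morphants against 7.74 ± 1.37 in wild type (adjusted p = 0.0230). In the p53 response list 1 of 23 rows rose at 14 dpf, gadd45aa (9.58 ± 0.78 in morphants, 7.82 ± 1.42 in wild type, adjusted p = 0.0109), and 0 passed at 22 dpf. In the list of myc and growth control 1 of 19 rows rose at 14 dpf, myca (9.70 ± 0.69 in morphants, 8.54 ± 0.60 in wild type, adjusted p = 0.0202), and 0 passed at 22 dpf. These lists were also chosen with earlier results of these data known.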

How the data were processed

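The labels place 47 arrays in 4 groups of dnd morphants and wild type. The authors deposited 1 log2 intensity per row and array, made with RMA per the submitters' processing notes, and its version, the probe design and the genome build are not given in the sources used here. Precision depends on the number of arrays, since there is no read depth. No array or row was left out.

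A model of the 4 group means was fitted to all 31475 rows with limma 3.58.1 in R 4.3.3 (eBayes, 43 residual degrees of freedom), with Benjamini-Hochberg adjustment over all rows and calls at an adjusted p below 0.05. Differences are morphant minus wild type in log2 units. No filter on low values was used. Under a minimum mean of 6, tried as an alternative, rps3a is the 1 member left out. All 79 row names had a match among current zebrafish symbols in the gene tables used, and rplp2l is now rplp2b.

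The members and lists were chosen with earlier results of these data known. Named rows were those called, paralogs, the dimmest and most variable rows, and those farthest from the family median, with up to 3 called rows of each other list and the 6 outside rows most like the family. Some rows of the role lists and of title numbers were named after their values were seen, and the bands of brightness were also set after it. Alternatives were fits of 1 age, averaged near-duplicates (correlation above 0.65 or 0.6), other scaling, title number as a term, the low filter, trended and robust eBayes, and each array left out. A few rows are counted but not reported by name here. No sequences or coordinates are printed, as none of the array's build were used here.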

Additional observations from a re-analysis of the deposited data

Results flagged for a closer look

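In the groups of 9 and 10 morphant arrays, 18 named rows were examined for a value far from the others by Dixon's ratio. That makes 36 tests, and chance alone marks about 1 in 20 groups of rows chosen without regard to their spread. Rows such as rpl12, rpl23 and rps4x were named for a large SD, which a far value raises, so that rate need not hold for them. The ratio marked 4 values. At 14 dpf the lowest morphant value of rps4x was 9.41 on array 1, with the nearest array at 10.49. At 14 dpf the lowest morphant value of rpl12 was 8.93 on array 15, with the nearest at 10.22. At 22 dpf the highest morphant value of rpl12 was 10.70 on array 16, with the nearest at 10.22. At 22 dpf the lowest morphant value of rpl23 was 5.54 on array 18, with the nearest at 6.05. None of these rows was called at either age. Groups of 14 wild-type arrays were not examined in this way.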

How the results depend on the processing

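No paired analysis was possible because morphant and wild-type arrays of 1 age share no title number. The count of ribosomal protein rows called was 0 at 22 dpf and 0 for the change between ages under every alternative tried, and 1 (rps27.2) at 14 dpf under all but the fit of that age alone, where it was 0 and rps27.2 had an adjusted p of 0.0609; that fit called 195 rows of the table, against 780. With each array left out in turn the counts were 0 to 0 at 22 dpf, 1 to 1 at 14 dpf and 0 to 0 for the change between ages. The median difference of the family ran from -0.00305 to 0.0163 at 22 dpf and from -0.0323 to -0.0227 at 14 dpf with arrays left out, and was 0.0225 at 14 dpf with arrays centred on their median. The median level difference, 22 minus 14 dpf, was -0.00949 in morphants and -0.0105 in wild type with centred arrays, and 0.0362 in morphants and 0.0265 in wild type with joint quantile normalization. Signs turned in rows whose differences lay near 0: with arrays left out, rps27.2 at 22 dpf ran from -0.127 to 0.000771 (without morphant array 14), rpl3 at 22 dpf from -0.12 to 0.0239 (without morphant array 17), and rps27.1 from -0.0204 (without wild-type array 5) to 0.0349 at 22 dpf and from -0.000518 (without morphant array 2) to 0.0375 at 14 dpf. At 22 dpf rps27.1 was -0.000361 with near-duplicates averaged at either limit and -0.0057 with title number as a term. Ribosome biogenesis rows lower in morphants at 14 dpf numbered 2 in the fit of that age, 5 with centred arrays, 3 without morphant array 16 and 11 without wild-type array 12. All rows called at 22 dpf numbered 669 with near-duplicates averaged, against 1097, and 102 against 203 for the change between ages; at 14 dpf they numbered 400 with the limit of 0.6, which was chosen after the data were seen. The causes were not tested. Precision depends on the number of arrays, and compression near the top of the scale was not tested.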
